A study of Mus musculus with 13 samples.

Results

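The 10 genes studied here encode damage signals and the receptors and enzymes that read them, and they were followed through bulk RNA-Seq of the mouse midbrain. They were taken by symbol from the 49315 genes counted in each of 13 libraries. Hmgb1 and S100b are the ligands, Ager, Tlr2, Tlr4 and Cd14 the receptors, Myd88 the adaptor, Nlrp3 and Casp1 the inflammasome, and P2rx7 the ATP-gated channel. A gene was tested if 3 or more libraries held 10 or more counts of it, which kept all 10 genes and 19360 genes altogether.

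Damaged cells release molecules that are normally kept inside, called damage-associated molecular patterns (DAMPs), and neighboring glia and immune cells recognize them through a small set of receptors. HMGB1, a nuclear DNA-binding protein, and S100B, a calcium-binding protein abundant in astrocytes, both bind RAGE, the product of Ager, and HMGB1 is also recognized by the Toll-like receptors TLR2 and TLR4 with their coreceptor CD14. These Toll-like receptors pass the signal to the adaptor MyD88 and on to NF-kB, whereas extracellular ATP opens the P2X7 channel, which can set off the NLRP3 inflammasome and its protease caspase-1.

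The mice were males, 8 to 12 weeks old, on a C57BL/6J background and homozygous for a floxed Ripk3 allele in every group. Ripk3fl/fl Aldh1l1Cre+ mice (Cre+) also carried an inducible recombinase under the astrocytic Aldh1l1 promoter, and Ripk3fl/fl Aldh1l1Cre- littermates (Cre-) did not. Every animal, Cre- mice included, was given tamoxifen (60 mg/kg). Mice then received MPTP, a dopaminergic neurotoxin, at 20 mg/kg daily for 5 days, or saline, and midbrains were taken 3 days after the last dose. There were 4 mice in the Cre+ MPTP group and 3 in each of the Cre- Saline, Cre+ Saline and Cre- MPTP groups, with 1 animal per library.

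Libraries held from 11489150 to 29397278 gene counts. Summed markers of dopaminergic neurons lay between 344 and 619 CPM (counts scaled to a common library size) in the 4 groups, so these markers were detected in every library. Aldh1a1 was the largest part of the sum, while Th lay between 31.9 and 53.6 CPM and Slc6a3 between 10.8 and 77.4 CPM. Ripk3 had 4 to 40 counts in Cre- and 4 to 19 in Cre+ libraries, too few and too overlapping to check single genotypes. A pair of libraries stood apart. The smallest total and the fewest detected genes belonged to Cre- MPTP replicate 1, and Cre+ MPTP replicate 4 held 6580 CPM of cardiac and skeletal muscle markers, against 15.6 to 155 CPM in the other 12 libraries. Within the Cre- MPTP group, replicate 1 had the highest CPM of Cd14 and Myd88 and the lowest CPM of the other 8 genes. Many results that rest on these libraries are given with and without them, and the others include both.

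The levels of the 10 genes were compared per length, as CPM per kilobase of exon. In control tissue without MPTP (Cre- Saline, n = 3) S100b stood at 168 ± 10.7 (SD) and Hmgb1 at 27.5 ± 4.62 CPM per kb, far above the genes that detect them. Myd88 followed at 3.01 ± 0.297, P2rx7 at 2.27 ± 0.511 and Cd14 at 1.66 ± 0.138 CPM per kb. Tlr2 and Casp1 were lower, at 0.886 ± 0.104 and 0.589 ± 0.0806 CPM per kb. The lowest levels were those of Ager, Nlrp3 and Tlr4, at 0.382 ± 0.0108, 0.272 ± 0.0566 and 0.245 ± 0.125 CPM per kb. The ranges of P2rx7 and Cd14 overlapped between their 3 libraries, as did those of Tlr4 with both Ager and Nlrp3, so these neighbors in the order were not separated beyond their spread. In Cre- MPTP libraries Cd14 stood at 12.1 ± 2.43 CPM per kb (n = 3), above Myd88 at 6.37 ± 2.61 and Tlr2 at 4.49 ± 1.76 CPM per kb. Over all 13 libraries S100b lay above 98.8% of the genes tested and Hmgb1 above 89.3%, whereas Nlrp3 lay above 10.8%, Tlr4 above 11.8% and Ager above 12.3%.

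**Figure D1:**
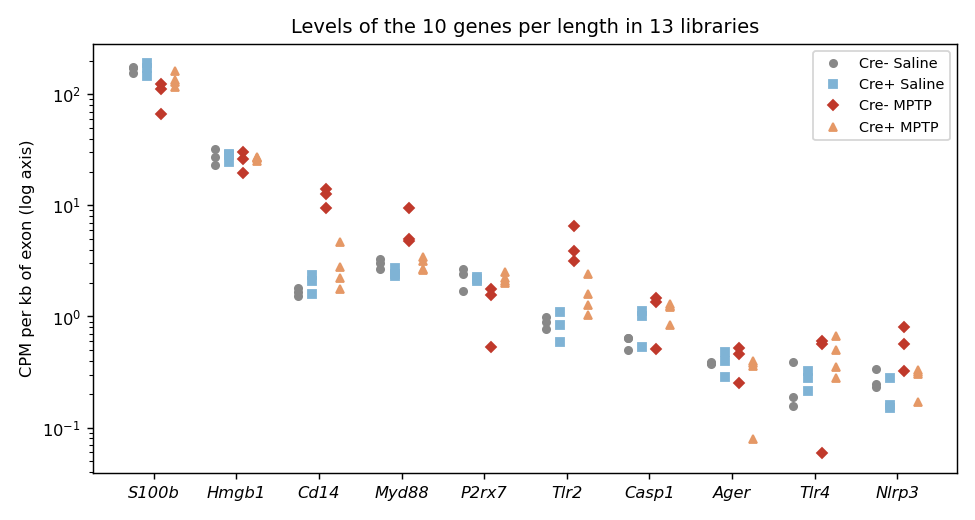
Level of each gene in CPM per kb of exon (log axis) in each of the 13 libraries, 1 point per library, with genes ordered by their mean and colors and shapes giving the 4 groups. S100b and Hmgb1 lie above every receptor, and Cd14, Myd88 and Tlr2 are highest in Cre- MPTP libraries.

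Promoter sequences are shown for the genes with a call and a window (Tlr2 and Myd88) and for Nlrp3, which shares a letter match with Myd88. The windows, from RefSeq (GRCm38.p6), run 300 bases from 250 before to 50 after an annotated start, and 11 windows of 8 of the 10 genes were searched on both strands for 5 short motifs. The Tlr2 window is chr3:83841559-83841858 (minus strand), that of Myd88 chr9:119339969-119340268 (minus strand) and that of Nlrp3 chr11:59541319-59541618 (plus strand), each written 5′ to 3′ with matches in capitals.
Tlr2: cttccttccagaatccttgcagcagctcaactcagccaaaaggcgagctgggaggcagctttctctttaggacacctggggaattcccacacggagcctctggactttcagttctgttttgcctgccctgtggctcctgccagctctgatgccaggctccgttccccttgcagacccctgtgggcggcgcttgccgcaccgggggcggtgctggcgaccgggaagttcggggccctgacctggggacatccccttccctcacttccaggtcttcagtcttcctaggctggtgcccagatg
Myd88: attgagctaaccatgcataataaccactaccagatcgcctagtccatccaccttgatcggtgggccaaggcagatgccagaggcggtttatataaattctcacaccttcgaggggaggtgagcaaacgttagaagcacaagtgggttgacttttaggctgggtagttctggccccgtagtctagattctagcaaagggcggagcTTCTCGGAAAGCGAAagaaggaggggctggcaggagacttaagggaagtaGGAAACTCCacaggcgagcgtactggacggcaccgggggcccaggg
Nlrp3: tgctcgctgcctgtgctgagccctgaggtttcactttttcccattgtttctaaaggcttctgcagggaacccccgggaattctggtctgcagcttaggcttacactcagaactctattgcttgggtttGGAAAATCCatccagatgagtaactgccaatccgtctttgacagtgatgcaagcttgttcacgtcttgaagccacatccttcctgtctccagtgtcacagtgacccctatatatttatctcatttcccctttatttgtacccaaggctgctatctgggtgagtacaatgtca
The NF-kB motif GGANNTTCC, present in 4.26% of 32851 windows of all genes, matched in Myd88 from 5 bases after the start and in this Nlrp3 window from 122 bases before it. The Myd88 window also held the STAT motif TTCNNNGAA (8.3% of all windows) and the interferon-response motif GAAANNGAA (8.56%), and these matches share 3 bases, which is why they read as 1 run of capitals. The AP-1 motif TGANTCA (7.81% of windows) matched once among these genes, in a P2rx7 window, and the C/EBP motif TTGCNNAA (10.8%) did not match. The windows of Hmgb1, S100b, Ager, Tlr2 and Casp1 held none of the 5 motifs as spelled here. Other spellings of these sites were not searched, and the stretch gggaattccc of the Tlr2 window is not covered by the NF-kB letters used here. No window can thus be said to lack an NF-kB site. A match of letters is not a binding site.

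The first comparison asked how these genes responded to MPTP in mice with intact astrocytic Ripk3. Transcripts of the coreceptor Cd14, the receptor Tlr2 and the adaptor Myd88 rose, whereas neither ligand nor the receptor Ager passed the test. By edgeR's quasi-likelihood test at a Benjamini-Hochberg adjusted p under 0.05, MPTP raised 3 of the 10 genes in Cre- mice and lowered 0. Among all 19360 genes tested, 3.18% were called, 2.23% as higher and 0.956% as lower. The median log2 fold change (log2FC) of the 10 genes was 0.88, against 0.025 over all genes tested.

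Cd14 (ENSMUSG00000051439, chromosome 18, 36725074 to 36726736 of GRCm38) encodes the surface protein that hands lipid and DAMP ligands to TLR4 and TLR2. It had 2.38, 2.81 and 2.63 CPM with Saline and 22.2, 14.8 and 20.1 CPM with MPTP. The groups did not overlap, and the lowest MPTP library lay far above the highest Saline library. The rise was 7.28-fold (log2FC 2.86, SE 0.338, adjusted p = 0.000979, edgeR), and this call held under all 14 alternatives, between 2.70 and 3.01.

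Tlr2 (ENSMUSG00000027995, chromosome 3, 83836272 to 83841767) encodes a receptor for bacterial lipoproteins and for HMGB1, and its promoter is printed above. Saline libraries had 2.34, 2.97 and 2.70 CPM and MPTP libraries 9.43, 19.5 and 11.7 CPM, again without overlap. The rise was 5.09-fold (log2FC 2.35, SE 0.367, adjusted p = 0.00363, edgeR), and it was called under all 14 alternatives.

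Myd88 (ENSMUSG00000032508, chromosome 9, 119335934 to 119341411) encodes the adaptor shared by most Toll-like receptors and the interleukin-1 receptor family. It had 7.86, 6.95 and 8.47 CPM with Saline and 24.2, 12.9 and 12.2 CPM with MPTP. All 3 MPTP libraries were higher, and replicate 1 was well above the other 2. Myd88 rose 2.10-fold (log2FC 1.07, SE 0.25, adjusted p = 0.0359, edgeR), or by 0.70 without Cre- MPTP replicate 1, where it was still called (adjusted p = 0.015). Omitting any 1 Cre- Saline library ended the call, the largest edgeR adjusted p being 0.17. Of all genes, omitting replicate 1, 2 or 3 of that group left 224, 213 or 272 called higher, against 431 with all libraries. Of its 2576 exon bases, 290 are shared with Acaa1a on the opposite strand, and the strand setting of the counting is not given in the sources used here, so reads there may not be told apart.

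CPM did not overlap between the groups for Cd14, Tlr2 and Myd88 on the higher side and for S100b on the lower side. Over all genes tested, 7.11% did not overlap on the higher side and 8.02% on the lower side.

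**Figure D2:**
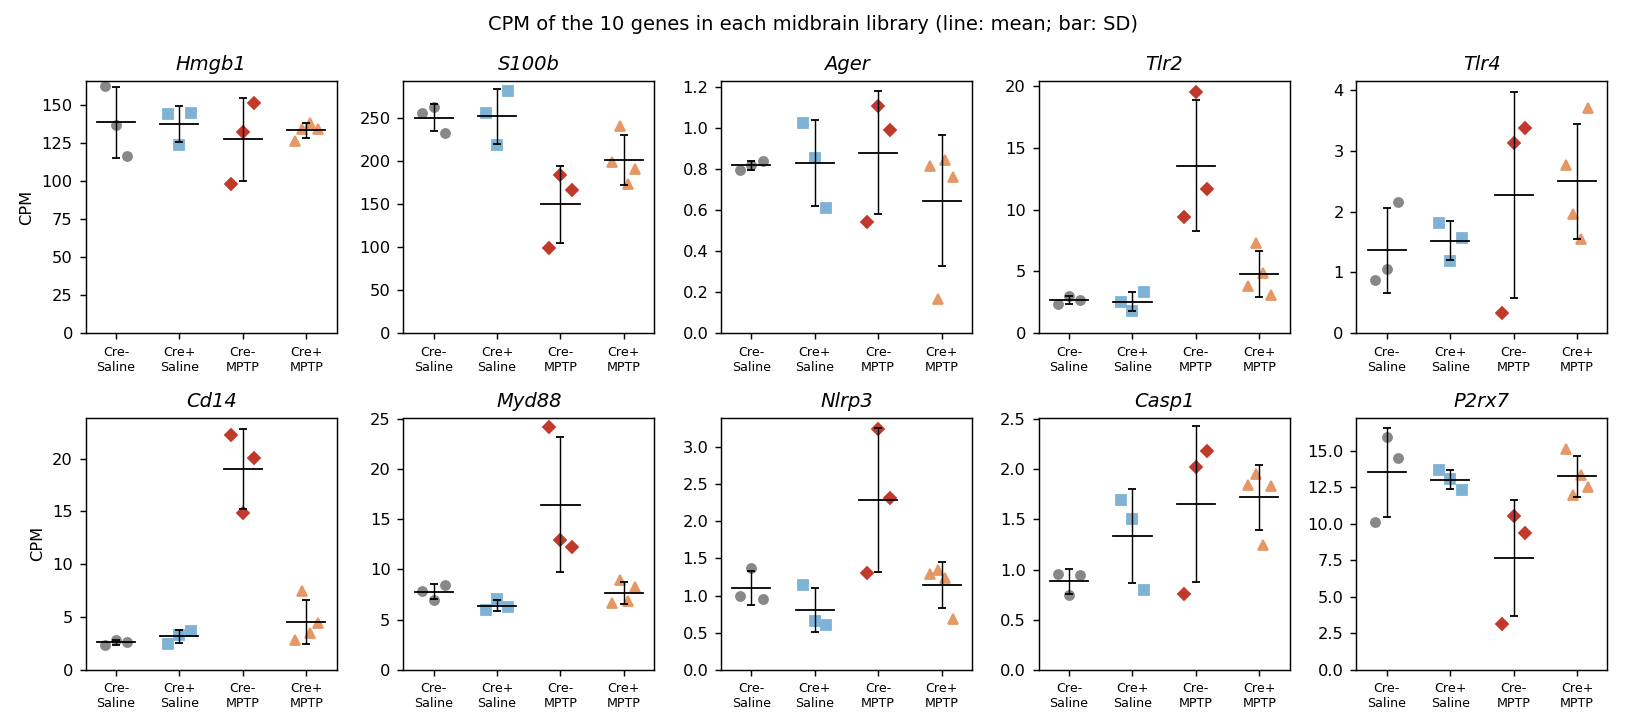
CPM of the 10 genes in every library, 1 panel per gene with its own axis from 0, points for single mice in the 4 groups, a line for the mean and a bar for the SD. Every Cre- MPTP library lies above all 10 others for Cd14, Tlr2 and Myd88, and S100b and P2rx7 have their lowest library in that group.

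The inflammasome genes and Tlr4 had positive log2FC in Cre- mice and did not pass edgeR's test over all libraries, whereas limma voom over the same libraries called all 3 (Nlrp3 1.05, adjusted p = 0.0131, Casp1 1.39, adjusted p = 0.00569, and Tlr4 1.45, adjusted p = 0.00499). Limma voom called more of all genes as well, 1373 higher and 1251 lower, against 431 and 185 by edgeR. So did edgeR without Cre- MPTP replicate 1, with 992 higher and 820 lower. Nlrp3 (ENSMUSG00000032691, chromosome 11, 59541568 to 59566956), which encodes the sensor of the inflammasome, had 0.992, 1.37 and 0.949 CPM with Saline and 1.30, 3.25 and 2.31 CPM with MPTP. This gave a log2FC of 1.08 (SE 0.387, adjusted p = 0.216, edgeR). Without Cre- MPTP replicate 1, whose Nlrp3 value rests on 12 counts, it was 1.33 and called (adjusted p = 0.0296). Casp1 (ENSMUSG00000025888, chromosome 9, 5298517 to 5307265), the protease that matures interleukin-1β and interleukin-18, had 0.952, 0.742 and 0.949 CPM with Saline and 0.759, 2.02 and 2.18 CPM with MPTP. The lone low MPTP library was again replicate 1, with 7 counts. The log2FC of Casp1 was 0.95 (SE 0.392, adjusted p = 0.288, edgeR), or 1.25 without that library, where it was called (adjusted p = 0.0283).

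Tlr4 (ENSMUSG00000039005, chromosome 4, 66827584 to 66930284), the receptor for endotoxin and HMGB1, also had its lowest Cre- MPTP value in replicate 1. It had 0.873, 1.05 and 2.15 CPM with Saline and 0.325, 3.13 and 3.37 CPM with MPTP, the first of these from 3 counts. This gave a log2FC of 0.80 (SE 0.592, adjusted p = 0.518, edgeR). Without Cre- MPTP replicate 1 it was 1.25 (adjusted p = 0.0681), and without that library and Cre+ MPTP replicate 4 it was 1.26 and called (adjusted p = 0.044).

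S100b and P2rx7 had negative log2FCs in Cre- mice, and neither was called by edgeR over all libraries. Over the same libraries DESeq2 called S100b (-0.72, adjusted p = 0.0184), and limma voom called S100b (-0.58, adjusted p = 0.00269) and P2rx7 (-0.64, adjusted p = 0.00587). Of all genes DESeq2 called 380 lower and limma voom 1251, against 185 by edgeR. S100b (ENSMUSG00000033208, chromosome 10, 76253853 to 76261159) had 255.5, 262 and 232 CPM with Saline and 98.3, 183 and 166 CPM with MPTP, so every MPTP library lay below every Saline library. This gave a log2FC of -0.74 (SE 0.211, adjusted p = 0.0967, edgeR), and without Cre- MPTP replicate 1 it was smaller, -0.51, but called (adjusted p = 0.0301). P2rx7 (ENSMUSG00000029468, chromosome 5, 122643911 to 122691432) had 10.1, 16.0 and 14.5 CPM with Saline and 3.14, 10.5 and 9.38 CPM with MPTP, and the groups overlapped. This gave a log2FC of -0.79 (SE 0.329, adjusted p = 0.294, edgeR), or -0.44 without replicate 1 (adjusted p = 0.135). P2rx7 shares 119 exon bases with the microRNA gene Mir8115 on the same strand.

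Hmgb1 and Ager did not differ detectably with MPTP in Cre- mice. Hmgb1 (ENSMUSG00000066551, chromosome 5, 149046702 to 149184489) had 162, 137 and 116 CPM with Saline and 98.0, 132 and 151 CPM with MPTP. The groups overlapped across almost their whole ranges, and the sign of the small log2FC, -0.12 (SE 0.169), turned without Cre- MPTP replicate 1 (0.04). Hmgb1 shares 37 exon bases with Mm2pr and 42 with Uspl1, and 9 named Hmgb1 pseudogenes are among the genes counted. Only unique hits were counted, so reads that match several of these genes may be missing from Hmgb1. Ager (ENSMUSG00000015452, chromosome 17, 34597862 to 34600936) had 0.794, 0.820 and 0.840 CPM with Saline and 0.542, 1.11 and 0.990 CPM with MPTP. Its counts were 3 to 30 in the 13 libraries, and with an SE of 0.461 around a log2FC of 0.16 a moderate change of Ager was not detectable at this depth.

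The next comparison asked for the same response in mice whose astrocytes had lost Ripk3. In Cre+ mice 0 of the 10 genes and 0% of the 19360 genes tested were called with MPTP by edgeR's quasi-likelihood test. An unadjusted p under 0.05 was reached by 672 genes, 1 of them among the 10. DESeq2 called 75 genes higher and 8 lower, and limma voom called 183 and 111, with 0 of the 10 genes in either. The log2FCs of the 10 genes lay between -0.33 (Ager and S100b) and 0.90 (Tlr2), with a median of 0.31 against 0.003 over all genes. No gene of the 10 separated the groups by CPM in either direction, against 5.06% of all genes on the higher side and 4.61% on the lower side.

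The gene at an unadjusted p under 0.05 was Tlr2. It had 2.52, 1.79 and 3.31 CPM in Cre+ Saline libraries and 3.84, 7.33, 4.84 and 3.09 CPM in Cre+ MPTP libraries, and the lowest MPTP library lay within the Saline range. This gave a log2FC of 0.90 (SE 0.341, unadjusted p = 0.0209, adjusted p = 1, edgeR). Cd14 had 2.48, 3.29 and 3.69 CPM in Cre+ Saline libraries and 2.77, 7.44, 3.51 and 4.39 CPM in Cre+ MPTP libraries. Replicate 2 was the high library among them, and the log2FC of Cd14 was 0.51 (SE 0.304, adjusted p = 1, edgeR). Myd88 had 5.95, 6.996 and 6.206 CPM with Saline and 6.69, 8.90, 6.83 and 8.20 CPM with MPTP, a log2FC of 0.26 (SE 0.234). These values include Cre+ MPTP replicate 4. Over 15 alternatives, among them fits without that library, the log2FC of Tlr2 was 0.62 to 1.14. That of Cd14 was 0.17 to 0.68 and that of Myd88 0.18 to 0.33, and 0 of these alternatives called any of the 3 genes.

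The inflammasome genes and P2rx7 stayed within overlapping ranges in Cre+ mice. Nlrp3 had 1.14, 0.651 and 0.609 CPM with Saline and 1.29, 1.34, 1.24 and 0.687 CPM with MPTP (log2FC 0.50, SE 0.377). Casp1 had 1.695, 1.505 and 0.7995 CPM with Saline and 1.85, 1.96, 1.24 and 1.83 CPM with MPTP (0.37, SE 0.36). For P2rx7 the values were 13.7, 13.1 and 12.3 CPM with Saline and 15.12, 11.97, 13.35 and 12.52 CPM with MPTP (0.02, SE 0.304). P2rx7 was thus the most even of these in Cre+ tissue, and its 2 lowest libraries of all 13 were in the Cre- MPTP group.

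Among the ligands and the remaining receptors, S100b had 255, 218 and 281 CPM with Saline and 198, 240.5, 172.5 and 190.4 CPM with MPTP in Cre+ mice. Its log2FC, -0.33 (SE 0.195), had the same sign as in Cre- mice. Tlr4 had 1.81, 1.18 and 1.56 CPM with Saline and 2.77, 1.96, 1.55 and 3.70 CPM with MPTP (0.72, SE 0.557). Hmgb1 varied between 124 and 145 CPM with Saline and between 126 and 138 CPM with MPTP (-0.04, SE 0.158). Ager varied between 0.609 and 1.02 CPM with Saline, and with MPTP it had 0.813, 0.168, 0.843 and 0.763 CPM (-0.33, SE 0.433).

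The genotypes were then compared directly after MPTP. The genes that were called were Cd14, Tlr2 and Myd88, and all 3 were lower in Cre+ MPTP than in Cre- MPTP libraries. The Cre- MPTP libraries serve in both this comparison and the first, so these results are not independent of each other. Of the 10 genes 3 were lower and 0 higher, and of all genes tested 1.54% were called, 1.03% as lower and 0.517% as higher. The median log2FC of the 10 genes was -0.23, against 0.03 over all genes tested.

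Cd14 in Cre+ MPTP libraries, at 2.77 to 7.44 CPM, lay below the 14.8 to 22.2 CPM of Cre- MPTP libraries. This gave a log2FC of -2.08 (SE 0.297, adjusted p = 0.00827, edgeR), and the call held without each of the 7 libraries in turn. Tlr2, at 3.09 to 7.33 CPM against 9.43 to 19.5 CPM, had a log2FC of -1.52 (SE 0.325, adjusted p = 0.0399, edgeR). Myd88, at 6.69 to 8.90 CPM against 12.2 to 24.2 CPM, had -1.09 (SE 0.23, adjusted p = 0.0384, edgeR), or -0.72 without Cre- MPTP replicate 1. The calls of Tlr2 and Myd88 were lost without Cre+ MPTP replicate 1, 3 or 4, with edgeR adjusted p-values of up to 0.143 and 0.128. Of all genes, these fits called 18 higher and 24 lower, 20 and 21, and 41 and 67, against 100 and 199 with all libraries. With edgeR fitted to the 2 groups alone, 0 of the 10 genes and 0 of all 18480 genes were called, so that fit does not set these genes apart.

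CPM of these 3 genes did not overlap between the genotypes after MPTP, nor did those of P2rx7 in the other direction. Over all genes tested 5.07% did not overlap on the lower side and 6.25% on the higher side. P2rx7 had 11.97 to 15.12 CPM in Cre+ MPTP and 3.14 to 10.5 CPM in Cre- MPTP libraries, and its log2FC of 0.76 (SE 0.311) was not called (adjusted p = 0.225, edgeR). Without Cre- MPTP replicate 1 it was 0.41 (adjusted p = 0.297). Nlrp3 had -1.03 (SE 0.359, adjusted p = 0.193, edgeR), with Cre- MPTP replicate 1 inside the Cre+ range, and -1.29 without that library (adjusted p = 0.0503). Limma voom over all libraries called Nlrp3 lower (-1.15, adjusted p = 0.0118) and P2rx7 higher (0.50, adjusted p = 0.0435). Of all genes it called 488 higher and 736 lower, against 100 and 199 by edgeR.

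Casp1 stood at 1.72 ± 0.323 CPM (SD) in the 4 Cre+ MPTP libraries and 1.65 ± 0.778 CPM in the 3 Cre- MPTP libraries, with a log2FC of 0.005 (SE 0.367), and its sign depended on the method. Tlr4 stood at 2.5 ± 0.95 CPM (n = 4) and 2.27 ± 1.69 CPM (n = 3), a log2FC of 0.07 (SE 0.545). That of Tlr4 turned to -0.38 without Cre- MPTP replicate 1 and to -0.19 without Cre+ MPTP replicate 4. S100b, at 200 ± 28.8 CPM (n = 4) and 149 ± 44.9 CPM (n = 3), had 0.42 (SE 0.198), and 0.19 without Cre- MPTP replicate 1. Hmgb1 and Ager had 0.06 (SE 0.158) and -0.47 (SE 0.436).

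**Figure D3:**
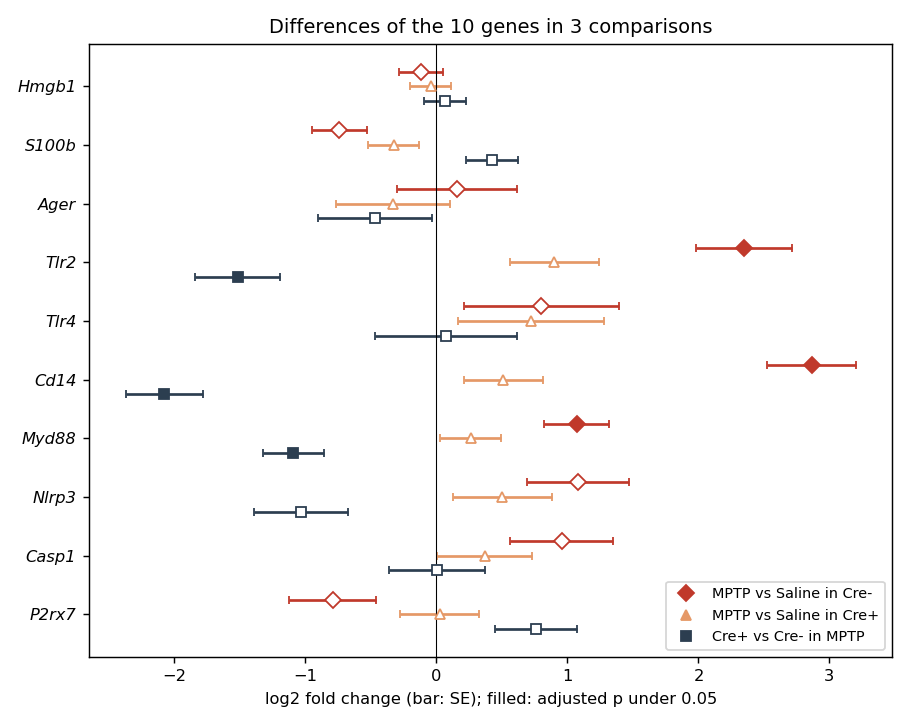
Log2 fold change of each gene (x axis) with its SE (bar) for MPTP against Saline in Cre- mice, the same in Cre+ mice, and Cre+ against Cre- after MPTP, with filled symbols where the adjusted p was under 0.05. Filled symbols belong to Cd14, Tlr2 and Myd88, higher with MPTP in Cre- mice and lower in Cre+ than in Cre- mice after MPTP, and no symbol is filled for MPTP in Cre+ mice.

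Between the genotypes without MPTP, 0 of the 10 genes and 0% of all genes tested were called by edgeR's quasi-likelihood test. An unadjusted p under 0.05 was reached by 176 genes and 0 of the 10, while DESeq2 called 2 genes and limma voom 3, 0 of the 10 in either. The log2FCs of the 10 genes ran from -0.46 (SE 0.398) for Nlrp3 to 0.59 (SE 0.392) for Casp1, with Cd14 at 0.28 (SE 0.326), Tlr2 at -0.07 (SE 0.361) and Myd88 at -0.28 (SE 0.249). In each of the 10 the CPM of the Saline groups overlapped, against 5.91% and 5.71% of all genes that did not overlap on the higher and the lower side.

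Whether the response to MPTP differed between the genotypes was tested as an interaction, and 0 of the 10 genes passed it by edgeR. Of all genes, 2 passed (0.0103%) and 1116 had an unadjusted p under 0.05. Cd14 had the largest interaction of the 10, -2.35 on the log2 scale (SE 0.441, unadjusted p = 0.000162, adjusted p = 0.138, edgeR). It was called without Cre- MPTP replicate 1 (-2.24, adjusted p = 0.0298), without Cre+ MPTP replicate 2 (-2.69, adjusted p = 0.00732), by DESeq2 (-2.39, adjusted p = 0.000209) and by limma voom (-2.52, adjusted p = 0.000498). Tlr2 had -1.45 (SE 0.486, adjusted p = 0.56, edgeR) and Myd88 -0.81 (SE 0.34, adjusted p = 0.795, edgeR), the latter -0.43 without Cre- MPTP replicate 1. P2rx7 had 0.82 (SE 0.448), Casp1 -0.59 (SE 0.529) and Nlrp3 -0.58 (SE 0.538). Limma voom also called Tlr2 (-1.56, adjusted p = 0.0312) and P2rx7 (0.73, adjusted p = 0.0356), so whether a difference in response was called for Cd14, Tlr2 and P2rx7 depended on the method. Of all genes, DESeq2 called 83 higher and 140 lower in the interaction, and limma voom 291 and 398, against 2 by edgeR.

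To place the 10 genes in their pathway, 88 further genes in 6 lists were examined, of which 81 passed the filter. In Cre- mice 12 of the 81 rose with MPTP and 4 fell, against 2.23% and 0.956% of all genes tested. The 12 include S100a8 and Clec4d, which had under 10 counts in every Saline library and passed the filter through MPTP libraries alone. The 10 genes and the lists were chosen with earlier results of these data known, so these shares are a description. Between the genotypes after MPTP, Cre+ mice had 3 of the 81 higher and 7 lower, against 0.517% and 1.03% of all genes tested, and 0 of the 81 were called with MPTP in Cre+ mice by edgeR, against 2 called by limma voom and 1 by DESeq2. Where calls below were lost without a Cre- Saline library or without Cre+ MPTP replicate 1, 3 or 4, calls over all genes fell too, as given above.

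Among 15 other DAMP ligands 2 rose with MPTP in Cre- mice and 1 fell. The neutrophil and monocyte alarmins S100a8 and S100a9 rose, from 1 to 6 counts of S100a8 per Cre- Saline library to 41 to 564 counts per Cre- MPTP library. Both were lower in Cre+ than in Cre- mice after MPTP, but omitting Cre+ MPTP replicate 1 or 3 ended either call, as did Cre+ MPTP replicate 4 or Cre- MPTP replicate 3 for S100a9, whose rise in Cre- mice was also lost when any 1 Cre- Saline library was omitted. Il33, an alarmin stored in the nuclei of glia and other cells, fell from 105 ± 7.37 to 50.8 ± 19.8 CPM (SD, n = 3 each, log2FC -1.04, SE 0.222, adjusted p = 0.0217, edgeR). This fall was not called without any 1 of the Cre- Saline libraries or without Cre- MPTP replicate 3. In Cre+ mice Il33 stood at 110 ± 8.79 CPM with Saline (n = 3) and 90.2 ± 11.2 CPM with MPTP (n = 4). The median log2FC of the list was 0.10 in Cre- mice.

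Of 14 other Toll-like receptors and coreceptors tested, 3 rose in Cre- mice. Lbp, which encodes the protein that carries lipopolysaccharide to CD14, rose from 4.69 ± 1.10 to 24.2 ± 9.18 CPM (SD, n = 3 each, log2FC 2.36, SE 0.41, adjusted p = 0.00641, edgeR). It was lower in Cre+ MPTP libraries, at 6.92 ± 3.33 CPM (n = 4, -1.81, SE 0.366, adjusted p = 0.0325, edgeR), a call lost without Cre+ MPTP replicate 1, 3 or 4. Tlr7 and Tlr13, endosomal receptors for RNA, rose by 1.69 (SE 0.295, adjusted p = 0.00655, edgeR) and 1.47 (SE 0.334, adjusted p = 0.031, edgeR) on the log2 scale. Leaving out Cre- Saline replicate 2 ended the call of Tlr7, and leaving out any 1 of the Cre- Saline libraries or Cre- MPTP replicate 3 (0.94) ended that of Tlr13.

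Below the receptors, 1 of 15 signaling genes was called. Irak3, which encodes IRAK-M, a kinase-like inhibitor of MyD88 signaling, rose from 1.74 ± 0.537 to 13 ± 3.78 CPM in Cre- mice (SD, n = 3 each, log2FC 2.89, SE 0.394, adjusted p = 0.00202, edgeR). In Cre+ mice it had 1.71 ± 0.371 CPM with Saline (n = 3) and 2.13 ± 0.967 CPM with MPTP (n = 4). The genotypes differed after MPTP by -2.61 (SE 0.352, adjusted p = 0.0072, edgeR), and both calls held without each library of the groups compared. The other 14 did not pass.

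Of 12 other inflammasome and pyroptosis genes tested, 2 rose in Cre- mice. Casp4, the sensor of intracellular lipopolysaccharide (caspase-11), had 7 to 12 counts per Cre- Saline library and 6 to 107 per Cre- MPTP library (log2FC 2.99, SE 0.631, adjusted p = 0.0208, edgeR). Nek7, the NLRP3-binding kinase, rose from 61.3 ± 4.78 to 117 ± 27.6 CPM (SD, n = 3 each, 0.93, SE 0.188, adjusted p = 0.0165, edgeR). Omitting any 1 Cre- Saline library ended both calls, and that of Casp4 also without Cre- MPTP replicate 2. Il1b did not pass the filter on counts.

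Of 15 other purinergic receptors and ectonucleotidases, 2 fell in Cre- mice and 0 rose. P2ry12 and P2ry13, ADP receptors of resting microglia, had log2FCs of -2.79 (SE 0.199, adjusted p = 0.000104, edgeR) and -1.75 (SE 0.313, adjusted p = 0.00734, edgeR). After MPTP both were higher in Cre+ than in Cre- libraries, P2ry13 at 9.15 ± 1.86 CPM (SD, n = 4) against 2.62 ± 1.35 CPM (n = 3, 1.75, SE 0.30, adjusted p = 0.0161, edgeR). The call of P2ry13 between the genotypes was lost without Cre+ MPTP replicate 1 or 3. P2ry12 was also called in the interaction (2.26, adjusted p = 0.024, edgeR), a call that held when Cre+ MPTP replicate 2, Cre- Saline replicate 3 or either of Cre- MPTP replicates 1 and 2 was left out and was lost for each of the other 9 libraries, with edgeR adjusted p-values of up to 0.155.

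Of 10 other DAMP receptors tested, 4 rose and 1 fell in Cre- mice. The scavenger receptor gene Msr1 rose from 0.345 ± 0.103 to 17 ± 4.48 CPM (SD, n = 3 each, log2FC 5.61, SE 0.699, adjusted p = 0.0013, edgeR). In Cre+ MPTP libraries it had 1.18 to 6.88 CPM, lower than in Cre- MPTP (-2.62, SE 0.526, adjusted p = 0.0314, edgeR). Fpr1 and Fpr2, formyl peptide receptors of neutrophils and other myeloid cells, rose by 2.85 (SE 0.575, adjusted p = 0.0158, edgeR) and 2.83 (SE 0.512, adjusted p = 0.00828, edgeR) in Cre- mice. Both were lower in Cre+ than in Cre- mice after MPTP, by -2.67 (SE 0.519, adjusted p = 0.0274, edgeR) and -3.18 (SE 0.478, adjusted p = 0.0111, edgeR). Clec4d, a C-type lectin receptor gene of myeloid cells, had 0 to 1 counts per Cre- Saline library and 2 to 58 per Cre- MPTP library. Clec4d and S100a8 had under 10 counts in every Saline library and passed the filter through MPTP libraries alone. Their calls are included in the counts of genes that rose but are no independent support.

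Trem2, a lipid receptor of microglia, moved the other way. It fell from 11 ± 2.59 to 3.57 ± 1.74 CPM in Cre- mice (SD, n = 3 each, log2FC -1.59, SE 0.29, adjusted p = 0.00839, edgeR) and was 8.77 ± 0.999 CPM in Cre+ MPTP libraries (n = 4, 1.27 above Cre- MPTP, SE 0.276, adjusted p = 0.0417, edgeR). In the comparison of genotypes, the calls of Msr1, Fpr1 and Trem2 were lost without Cre+ MPTP replicate 1, 3 or 4, that of Trem2 also without replicate 2, and that of Fpr2 without replicate 3. In the first comparison, the call of Fpr1 ended when any 1 Cre- Saline library was omitted, that of Fpr2 without Cre- Saline replicate 3 and that of Clec4d without Cre- Saline replicate 1 or 2.

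**Figure D4:**
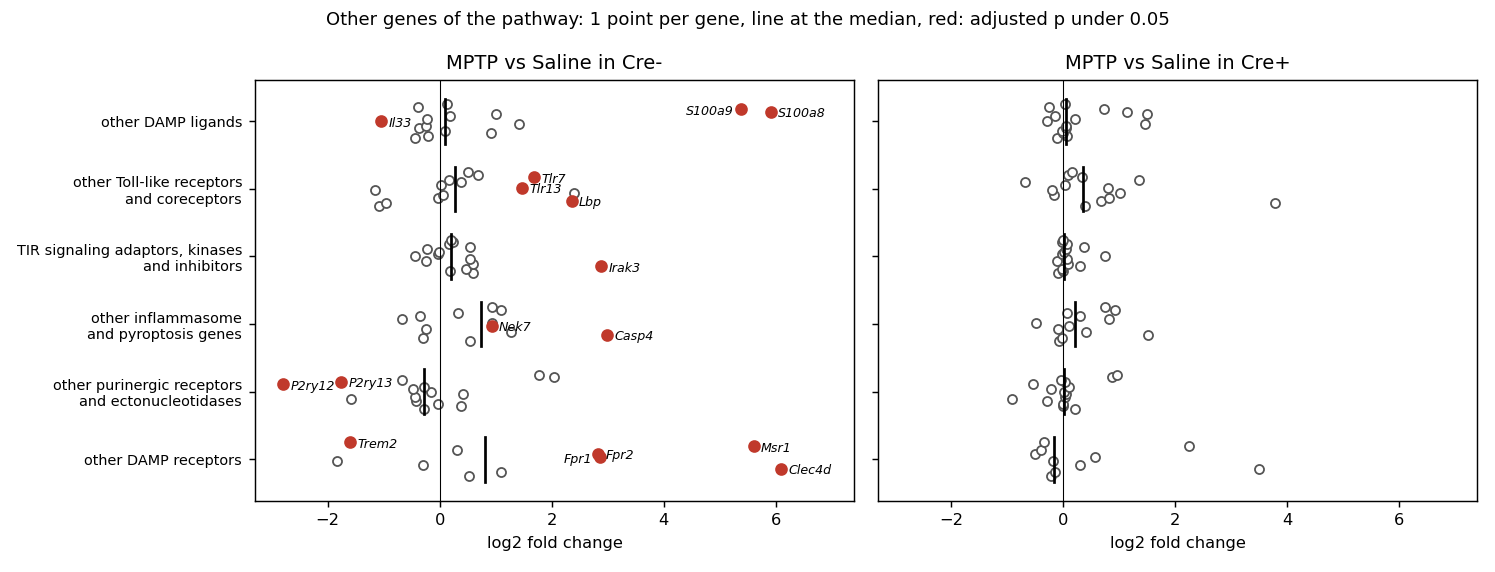
Log2 fold change with MPTP of the 81 tested pathway genes in Cre- mice (left) and Cre+ mice (right), 1 point per gene in 6 rows of lists, a line at each list's median, and red points with names where the adjusted p was under 0.05. In Cre- mice 16 points are red, 12 to the right of 0 and 4 to the left, and in Cre+ mice no point is red. Clec4d and S100a8, both among the 12, passed the filter through MPTP libraries alone. The value of Clec4d is fitted against a group with 0 to 1 counts.

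Markers of cell types were compared between the same libraries. In whole tissue, a change in the number of cells of a type and a change in RNA per cell cannot be told apart. The summed level of 10 microglial markers was 259 to 294 CPM in Cre- Saline, 194 to 272 in Cre- MPTP, 257 to 274 in Cre+ Saline and 260 to 371 in Cre+ MPTP libraries. Of the 10, 2 fell in Cre- mice (Siglech by 2.74 and Fcrls by 2.55 on the log2 scale) and 1 rose (Itgam, 1.36), the other 7 were not called, and the summed levels of the Cre- groups overlapped. The 8 markers of border macrophages and monocytes summed to 15.3 to 16.2 CPM in Cre- Saline, 9.43 to 27.2 in Cre- MPTP and 16.2 to 31.7 in Cre+ MPTP libraries, with Ly6c2 higher (2.66) and Mrc1 lower (-1.34) in Cre- MPTP, the other 6 not called and the sums overlapping. Ly6c2 had 8 to 35 counts in Cre- MPTP libraries and at most 10 in any other. It thus passed the filter on counts through the group where it was high, and its call is no independent support.

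The 8 neutrophil markers summed to 0.0397 to 0.949 CPM in Cre- Saline and 4.44 to 23.0 CPM in Cre- MPTP libraries. They summed to 0.244 to 3.16 CPM in Cre+ Saline and 0.370 to 1.73 CPM in Cre+ MPTP libraries. These sums did not overlap between the Cre- groups. Retnlg had 14 to 155 counts in Cre- MPTP libraries and at most 5 in any other, and Mmp8 21 to 224 against at most 10, so both passed the filter on counts through the group where they were high and their calls are no independent support. The defining marker Ly6g had 0 to 3 counts in every library. Between the genotypes after MPTP, 3 of 10 microglial markers were called higher in Cre+ libraries by edgeR (Siglech 2.75, Fcrls 2.72 and Olfml3 1.84) and 7 were not called. Of 8 markers of border macrophages and monocytes Mrc1 was called higher (1.70) and 7 were not called. Itgam (7.5 to 12.4 against 13.8 to 24.2 CPM) and Ly6c2 (0.191 to 0.311 against 0.475 to 1.16 CPM) lay lower in Cre+ libraries, without overlap and without a call.

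Some markers of other cell types differed as well. The 6 oligodendrocyte markers summed to 12100 to 16500 CPM in Cre- Saline and 9000 to 11600 CPM in Cre- MPTP libraries, without overlap, and to 14600 to 16300 CPM in Cre+ Saline and 10700 to 14000 CPM in Cre+ MPTP libraries, again without overlap. Of these 6 markers Mog was called lower in Cre- MPTP (-1.72, edgeR adjusted p = 0.0291) and 5 were not called. Of 6 endothelial markers Tek was called lower with MPTP in Cre- mice (-1.81, edgeR adjusted p = 0.00374). The other 5 were not called, and 3 of them had positive log2FCs. The endothelial sums overlapped, at 274 to 300 CPM in Cre- Saline and 242 to 406 CPM in Cre- MPTP libraries. Tek was also called higher in Cre+ than in Cre- mice after MPTP (1.88, edgeR adjusted p = 0.00907), and the other 5 were not called. Of 8 astrocyte markers Aldh1l1 was called higher in Cre- MPTP (0.65, edgeR adjusted p = 0.0403), and the astrocyte sums were 3510 to 4070 CPM in Cre- Saline and 2270 to 4290 CPM in Cre- MPTP libraries. Cd14, Tlr2 and Myd88 are expressed by microglia, monocytes and neutrophils, though not by these cells alone. The paper counts Cd14 among transcripts associated with neurotoxic astrocytes, and it rose in midbrain homogenates when RIPK3 was activated in astrocytes. The part of all these markers in the results for the 10 genes was not tested.

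**Figure D5:**
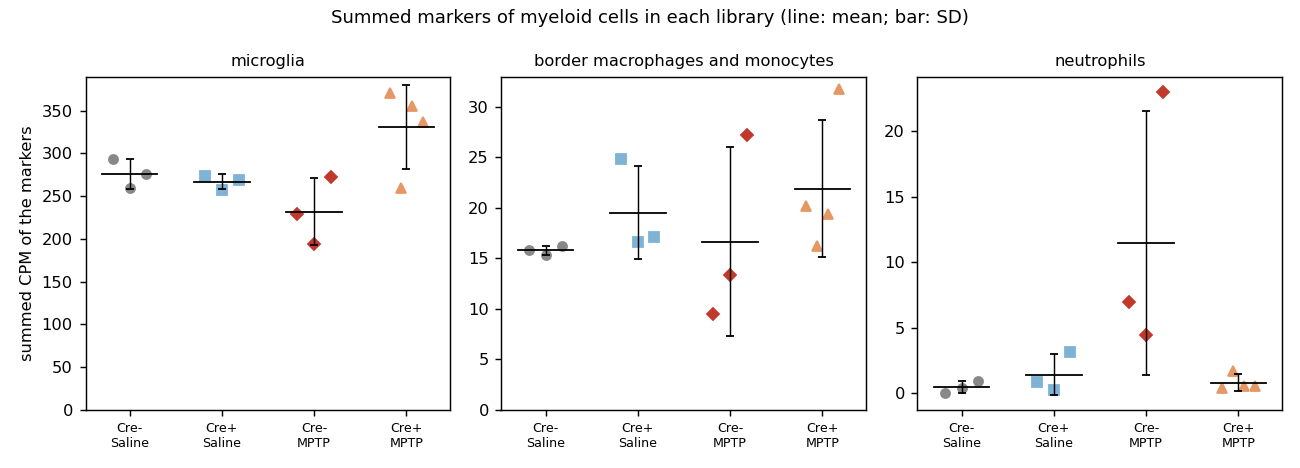
Summed CPM of the markers of microglia, of border macrophages and monocytes, and of neutrophils in each library, with points for mice in the 4 groups, a line for the mean and a bar for the SD. The 3 Cre- MPTP libraries have the highest neutrophil sums, from 4.44 to 23.0 CPM, and 3 of 4 Cre+ MPTP libraries have the highest microglial sums.

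The genes whose log2 CPM followed each of the 10 most closely over the 13 libraries were found by Pearson's r, as a description. For Cd14 they were Fkbp5 (r = 0.98), Cdkn1a (0.976) and Cxcl1 (0.975). For Tlr2 they were Igtp (r = 0.974), Cxcl10 (0.972) and A2m (0.964), and for Myd88 Tnfrsf1a, Mxd4 and Mvp, each with r = 0.978. These libraries share treatment groups and the low library Cre- MPTP replicate 1. P2rx7 was closest to Slc9a9 (r = 0.987), Cep97 (0.979) and Sema6d (0.977), and S100b to Cpq (0.979), Ctsk (0.969) and Ptgfr (0.965). For Tlr4 the closest were Edrf1 (0.967), Zhx3 (0.954) and Insr (0.95), and for Hmgb1 Gm28438 (0.949), Metap2 (0.944) and Cinp (0.943). The genes with few counts had weaker neighbors, with r = 0.891 for Casp1 and St8sia6, 0.875 for Nlrp3 and Zfand4, and 0.844 for Ager and Gm39325.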

How the data were processed

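Midbrain RNA from 13 mice was sequenced after a stranded total RNA library preparation. The authors used Trimmomatic 0.36 for trimming, STAR 2.5.2b for mapping to GRCm38 and featureCounts (Subread 1.5.2) for counting unique hits, and the deposited values are these raw counts for 49315 genes. Exon lengths come from the same files.

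Genes were named by Ensembl identifier (48970 matched). Groups follow the labels, which give each sample as a separate animal, and within groups no pair of libraries agreed within sampling noise. Tests used edgeR 4.0.16 (R 4.3.3), TMM scaling, genes with 10 or more counts in 3 or more libraries (19360), 1 term per group over 13 libraries and the quasi-likelihood test, with Benjamini-Hochberg adjustment over all genes tested and calls at an adjusted p under 0.05. The SE of a log2 fold change is its size divided by the square root of F. CPM use TMM factors, and CPM per kb divide by exon length. Alternatives were DESeq2 1.42.0, limma voom (3.58.1) with sample quality weights, DESeq2 size factors, other filters, edgeR on the groups compared, a replicate block, and libraries left out. Fits were tested on simulated data. Totals of 11489150 to 29397278 counts limit the precision for genes such as Ager and Tlr4.

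Genes named were the 10, the called genes of each pathway list (at most the 4 with the smallest p per comparison, and a gene named by 1 comparison was also given in the other), and the 3 genes nearest to each of the 10. The 10 genes and the lists were chosen with earlier results of these data known. Marker genes were named after their values were seen.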

Additional observations from a re-analysis of the deposited data

Results flagged for a closer look

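In the Cre+ MPTP group (n = 4), the lowest library was set apart from the others for 2 of the 10 genes, by the gap to its nearest neighbor as a share of the group's range. For Ager this share was 0.882, with replicate 2 at 0.168 CPM (3 counts) and the other 3 libraries at 0.763 to 0.843 CPM. For Nlrp3 it was 0.847, with replicate 4 at 0.687 CPM (18 counts) and the others at 1.24 to 1.34 CPM. Both shares pass Dixon's critical value for 4 samples, and chance alone sets apart about 1 in 20 groups. Without replicate 2 the log2 fold change of Ager between the genotypes after MPTP was -0.18, and without replicate 4 that of Nlrp3 was -0.85.

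The response of P2ry12, an ADP receptor of microglia on the purinergic list, differed between the genotypes by the test of the interaction (2.26 on the log2 scale, edgeR adjusted p = 0.024). This call held under 10 of 20 alternatives and in 4 of the 13 fits with a single library left out. The gene was measured in all 4 groups. It had 22.2 ± 3.72 CPM in Cre- Saline and 3.15 ± 0.579 CPM in Cre- MPTP libraries (SD, n = 3 each). In Cre+ mice it had 20.2 ± 3.01 CPM with Saline (n = 3) and 14 ± 1.14 CPM with MPTP (n = 4).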

How the results depend on the processing

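The rise with MPTP in Cre- mice was called for Cd14 and Tlr2 under all 14 alternatives, and for Myd88 under 9 of 14. Between the genotypes after MPTP, Cd14 was called under 13 of 15 alternatives and Tlr2 and Myd88 each under 10 of 15. Of the 10 genes (3 called higher, 0 lower) in Cre- mice, limma voom called 6 higher and 2 lower, DESeq2 1 lower, and 6 were higher and 1 lower in the fit that omits both Cre- MPTP replicate 1 and Cre+ MPTP replicate 4. Calls over all genes also grew, from 431 higher and 185 lower to 1373 and 1251 by limma voom and 757 and 380 by DESeq2. In the fit that omits both libraries they were 1059 and 864. With single libraries left out the range was 2 to 5 higher and 0 to 1 lower. Between genotypes after MPTP, limma voom called 1 of the 10 higher (P2rx7) and 4 lower (Nlrp3 beside Cd14, Tlr2 and Myd88), edgeR on the compared groups 0 lower, and single libraries left out gave 1 to 3 lower. Over all genes limma voom called 488 higher and 736 lower and DESeq2 269 and 565, against 100 and 199 in the main fit. EdgeR on the compared groups called 0 of all 18480 genes. For the interaction, where 0 were called, limma voom called 1 higher and 2 lower, DESeq2 1 lower, the fit without both libraries 1 lower, and single libraries left out 0 to 1 lower. Over all genes limma voom called 291 higher and 398 lower here, DESeq2 83 and 140, and the fit without both libraries 101 and 119.

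Of the pathway list genes, 12 were called higher and 4 lower in Cre- mice: limma voom called 25 and 7, edgeR on the compared groups 4 and 1, a filter of 20 counts in at least 6 libraries 7 higher, and single libraries left out 5 to 17 higher. With MPTP in Cre+ mice DESeq2 called 1 higher and limma voom 1 higher and 1 lower. Between genotypes after MPTP (3 higher, 7 lower), DESeq2 called 6 and 11, limma voom 6 and 16, edgeR on the compared groups 0 and 0, the stricter filter 3 lower, the fit without both libraries 11 lower, and single libraries left out 1 to 5 higher and 1 to 11 lower. For the interaction (1 higher, 0 lower), DESeq2 called 2 and 5, limma voom 2 and 9, the fit without both libraries 2 and 3, and single libraries left out 0 to 2 in either direction. Limma voom weights the samples, and a stricter filter or fewer libraries leaves fewer genes or samples to test. The cause was not tested further.

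In the replicate block (equal mouse numbers as pairs, without Cre+ MPTP mouse 4), 0 of the 10 genes and 0 and 0 of the pathway list genes were called between genotypes, 0 pathway genes in the interaction, and Cd14 had -2.13 (edgeR adjusted p = 0.0767). Of all 19196 genes tested in the block, 0 were called between genotypes after MPTP and 0 in the interaction. Samples with the same number deviated together little (3 of 18 pairs had r over 0.1, range -0.18 to 0.18). This check cannot exclude that some mice were paired, so whether equal numbers mark pairs is not known. The block reversed Tlr4 (-0.05) and Casp1 (-0.05) between genotypes.

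The signs that turned belonged to values near 0. For MPTP in Cre- mice Hmgb1 was 0.08 by limma voom, 0.05 without both libraries, 0.01 without Cre- Saline replicate 1 and 0.04 without Cre- MPTP replicate 1. Leaving out single libraries gave -0.27 to 0.04 for Hmgb1 and -0.02 (Cre- MPTP replicate 2 left out) to 0.36 for Ager. For MPTP in Cre+ mice P2rx7 was -0.02 without Cre+ Saline replicate 3 and -0.05 without Cre+ MPTP replicate 1, in a range of -0.05 to 0.07. Between genotypes after MPTP, Hmgb1 was -0.12 by limma voom and -0.10 without both libraries or Cre- MPTP replicate 1, in a range of -0.10 to 0.22 over single libraries left out. Tlr4 was -0.42 by limma voom, -0.63 without both libraries, and -0.38 to 0.43 with single libraries left out (-0.19 if Cre+ MPTP replicate 4 is omitted). Casp1 was -0.04 by DESeq2, -0.31 by limma voom, -0.01 with DESeq2 size factors or the stricter filter, -0.33 without both libraries, and -0.29 to 0.24 with single libraries left out. Counts of 3 to 30 for Ager and 3 to 102 for Tlr4 limit their precision, and 3 or 4 mice per group limit all of it.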
